A study of Mus musculus with 16 samples.

Results

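The comparison described here asked what growth with the Th2 cytokines IL-4 and IL-13 did to the miRNAs of macrophage-like cells that had all been given IL-33. It took the 4 arrays titled Th2 + IL-33 and the 4 arrays titled Media + IL-33, which is 8 of the 16 arrays of the series, and every mouse miRNA on them. RAW264.7 is a transformed mouse macrophage-like cell line, and all groups came from this line, which limits them as a model of tissue macrophages. The Th2 + IL-33 cells were kept for 48 h in medium with 10 ng/ml of Th2 cytokines, and the Media + IL-33 cells for 48 h in medium alone. Both were then washed and received 20 ng/ml of murine IL-33 for 4 h, so the cytokines of the growth phase were no longer added when IL-33 was. The groups Th2 and Media, from the same 4 independent experiments, had the same growth phase and no IL-33. Replicate numbers 1 to 4 stand for these experiments.

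A miRNA is cut from a hairpin precursor, whose arms give a 5p and a 3p strand, and bases 2 to 8 of the mature strand, the seed, pair with the messages it represses. Many miRNA genes lie inside a host gene or in clusters that can be transcribed together, so the level of a mature strand can follow that of its host. IL-4 and IL-13 drive macrophages to the alternatively activated state, of which the mannose receptor Mrc1 is a standard marker, while IL-33 is an alarmin that signals through ST2 and MyD88 to NF-kB.

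The mature sequences below are those the results turn on, from RefSeq on GRCm38.p6, with the seed in capitals. They are grouped by locus or by shared seed, because arms of a hairpin, cluster neighbours and near-identical relatives differed in how they moved. The lookup by array name did not take in every chromosome, and it gave sequences for 19 of the 22 miRNAs past the threshold. miR-532-5p, miR-378a-3p and miR-23b-3p are named only. The first set comes from the host genes Mrc1 and Clcn5.
miR-511-3p: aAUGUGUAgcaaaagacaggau
miR-362-5p: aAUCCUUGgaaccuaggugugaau
miR-362-3p: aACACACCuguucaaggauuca
miR-500-3p: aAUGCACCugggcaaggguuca

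The second set holds relatives that share a seed, so that they are read together with the differences between them below.
miR-99a-5p: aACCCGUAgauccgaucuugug
miR-100-5p: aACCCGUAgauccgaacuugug
miR-99b-5p: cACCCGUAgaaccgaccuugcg
miR-125b-5p: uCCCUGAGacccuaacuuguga
miR-125a-5p: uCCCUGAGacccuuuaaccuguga
let-7c-5p: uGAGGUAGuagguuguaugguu
let-7a-5p: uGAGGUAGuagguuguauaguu
let-7e-5p: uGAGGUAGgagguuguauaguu
miR-146b-5p: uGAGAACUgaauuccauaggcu
miR-146a-5p: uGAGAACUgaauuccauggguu

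The third set is the miR-183 cluster, the locus of the miRNAs that fell.
miR-183-5p: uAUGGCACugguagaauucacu
miR-96-5p: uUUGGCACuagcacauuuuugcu
miR-182-5p: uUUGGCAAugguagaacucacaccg

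Each array carried 1247 mouse miRNAs, of which 219 to 256 were detected per array and no spot was saturated. Values are given as relative signal, the miRNA's intensity divided by the 75th percentile of that array, with a floor of 0.0353 for signals too low to order. The number of arrays limits the precision. That percentile was 596 to 654 intensity units on the Media + IL-33 arrays and 462, 571, 636 and 472 on Th2 + IL-33 arrays 1 to 4. The macrophage miRNAs miR-223-3p, miR-142a-3p, miR-142a-5p, miR-21a-5p and miR-146a-5p were well above background on all 8 arrays. Of 18 miRNAs of other cells or serum on the array (liver, muscle, neural, epithelial, endothelial and erythroid among them), 0 to 1 was detected per array. Their summed relative signal, mostly floor, was 0.642 to 0.673 in Media + IL-33 and 0.635 to 0.663 in Th2 + IL-33. Th2 + IL-33 array 2 stood apart: its median correlation with its own group was 0.945, against at least 0.986 for the other arrays. On it, 33 of the 231 tested miRNAs lay over 1 log2 unit below the median of the other 3 arrays, and 0 of these were among the 22 past the threshold. The 4 Th2 + IL-33 arrays were all on slide 2, whereas Media + IL-33 arrays 1 and 2 were on slide 2 and arrays 3 and 4 on slide 1.

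After IL-33, cells grown with Th2 cytokines had more miR-511-3p, more of 4 strands from Clcn5 (miR-362-5p, miR-362-3p, miR-500-3p and miR-532-5p) and more miR-378a-3p, miR-378b and miR-378d. They also had more miR-99a-5p, miR-100-5p, let-7c-5p and miR-125b-5p, and more miR-342-3p, miR-223-3p, miR-146b-5p, miR-22-3p, miR-34a-5p, miR-155-5p and miR-23b-3p. The miR-183 cluster was lower. Of 231 miRNAs tested, 22 passed an adjusted p of 0.05 in limma (9.52%), 19 of them higher with Th2 growth (8.23%) and 3 lower (1.3%). The groups of all 22 did not overlap, so each of the 22 necessarily moved the same way in 4 of 4 experiments. The 22 were picked by the test on these same arrays, so this is no separate support. Over all tested miRNAs, the groups did not overlap with Th2 higher for 33 (14.3%) and with Th2 lower for 4 (1.73%). The median difference of all tested miRNAs was 0.08 on the log2 scale. Without any scaling between arrays this median was -0.16, and 14 miRNAs passed, 10 higher and 4 lower. The increases of let-7c-5p, miR-22-3p, miR-23b-3p, miR-34a-5p, miR-100-5p, miR-125b-5p, miR-146b-5p, miR-155-5p and miR-223-3p did not pass there, and each of the 22 kept its direction. With the normexp background correction 26 passed, all of them higher, and the differences of dim miRNAs were smaller (0.85 against 2.81 for miR-511-3p).

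**Figure D1:**
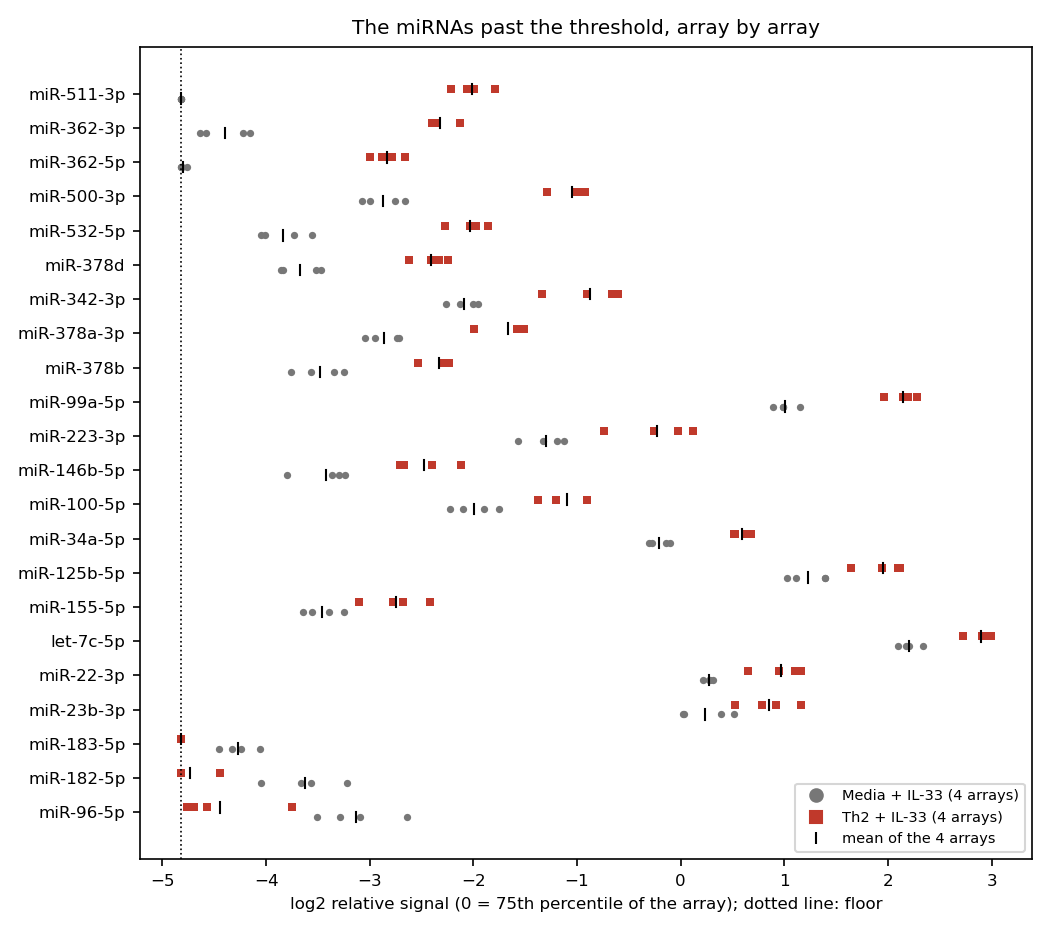
Log2 relative signal of each of the 22 miRNAs past the threshold on each of the 8 arrays (x axis; the dotted line is the floor); circles are the 4 Media + IL-33 arrays, squares the 4 Th2 + IL-33 arrays, and black ticks the mean of each 4. The circles and squares do not overlap for any of the 22, and miR-511-3p has all 4 circles at the floor.

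miR-511-3p comes from a hairpin within Mrc1 (chr2:14261051-14261072, plus strand), and it had the largest fitted increase of the tested miRNAs. It lay at the floor of 0.0353 on all 4 Media + IL-33 arrays and at 0.24, 0.251, 0.216 and 0.289 on Th2 + IL-33 arrays 1 to 4. No medium-grown array showed it above background, so the change is a lower bound of at least 4.77-fold (limma adjusted p = 5.23e-12). Such bounds set the brighter group's mean against the lowest signal that was well above background on the dimmer arrays. All 4 Media + IL-33 and all 4 Media values of miR-511-3p are the floor. They add no spread to the fit, which makes its SE and p-value smaller. The same holds in part for miR-362-5p, miR-182-5p and miR-183-5p, which also had arrays at the floor. On the arrays without IL-33, which share the fit, miR-362-3p, miR-96-5p, miR-146b-5p and miR-155-5p had values at the floor too. The arrays measured RNA of whole cultures, so more cells with a miRNA and more of it per cell cannot be told apart here or below. The other strand of the hairpin, miR-511-5p, was not detected on any of the 8 arrays.

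The miRNAs inside Clcn5, a chloride and proton exchanger gene on the X chromosome, gave 4 of the 19 increases. Of 10 of them on the array, 6 were tested and 4 rose, and the median of the 6 was 1.81 on the log2 scale against 0.08 for all tested. miR-362-3p (chrX:7241984-7242005, minus strand) was 0.0402, 0.0536, 0.0561 and 0.0419 on Media + IL-33 arrays 1 to 4, and 0.193, 0.229, 0.194 and 0.189 on Th2 + IL-33 arrays. This is an increase of at least 3.76-fold (limma adjusted p = 5.59e-07). Its sister strand miR-362-5p rose too, from 0.0353 to 0.0369 across the medium-grown arrays to 0.136, 0.145, 0.125 and 0.158. Its increase was at least 2.71-fold (limma adjusted p = 3.34e-10). Both arms of this hairpin therefore went from not well above background to well above it on all 4 arrays.

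miR-500-3p (chrX:7237695-7237716, minus strand), 4208 bases from miR-362, was measured well above background in both groups. It was 0.125, 0.148, 0.158 and 0.119 in Media + IL-33 and 0.504, 0.526, 0.408 and 0.498 in Th2 + IL-33, a 3.53-fold rise (log2 difference 1.82, SE 0.18, limma adjusted p = 2.60e-06). miR-532-5p rose by nearly the same amount, from 0.0604, 0.0621, 0.0852 and 0.0751 to 0.244, 0.276, 0.207 and 0.255 (3.49-fold, log2 difference 1.80, SE 0.18, limma adjusted p = 2.60e-06). In both, every Th2 + IL-33 array lay above the highest Media + IL-33 array. The opposite strand miR-532-3p was at the floor on every Media + IL-33 array and at 0.0437, 0.0738, 0.0458 and 0.046 with Th2 growth, and missed the threshold (limma adjusted p = 0.0804). miR-188-5p, 10215 bases from miR-500 in the same host, was 0.552 to 0.629 in Media + IL-33 and 0.464 to 0.606 in Th2 + IL-33. Its log2 difference of -0.12 had a 95% interval of -0.41 to 0.16, which leaves out a change of the size of its neighbours'. On every array the ratio of miR-500-3p to miR-188-5p was higher with Th2 growth, by 1.94 log2 units on average. miR-188-3p, miR-500-5p and both strands of miR-501 did not pass the filter on dim miRNAs.

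The miR-378 family, named after miR-378a, which sits in an intron of the PGC-1beta gene and is tied to lipid metabolism, rose in 3 of its 4 tested members (median 1.17). miR-378a-3p was 0.121, 0.13, 0.15 and 0.152 on Media + IL-33 arrays and 0.336, 0.352, 0.25 and 0.334 on Th2 + IL-33 arrays (log2 difference 1.19, SE 0.16, limma adjusted p = 8.79e-05). miR-378d rose from 0.069 to 0.09 across the medium-grown arrays to 0.162 to 0.211 (log2 difference 1.27, limma adjusted p = 8.27e-05). miR-378b rose from 0.0736 to 0.105 to 0.172 to 0.213 (log2 difference 1.15, limma adjusted p = 0.000525). In all 3, Th2 + IL-33 array 3 was the lowest of its group, and still above every medium-grown array. The family members come from different loci: miR-378d from chr10:126710355-126710376 and miR-378b from chr11:88352839-88352858 within Msi2. How far these related strands bind each other's probes was not tested, so the 3 rises may not be separate measurements. The passenger strand miR-378a-5p behaved unlike them, at 0.246, 0.984, 1.02 and 0.394 in Media + IL-33 and 0.68, 0.0528, 0.63 and 0.642 in Th2 + IL-33. Its groups overlapped widely (log2 difference -0.69, SE 0.93), and the low value is on the array that stood apart. miR-378c did not pass the filter on dim miRNAs.

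miR-99a, let-7c and miR-125b form a conserved cluster on chromosome 16, and miR-100 and a second miR-125b copy lie on chromosome 9. The related miR-99b, let-7e and miR-125a form the matching cluster elsewhere. miR-99a-5p, let-7c-5p, miR-125b-5p and miR-100-5p all rose, and the 5 tested strands of the miR-99b, let-7e and miR-125a loci did not pass the test. The chromosome 9 locus also holds a let-7a copy, 5212 bases from miR-100, and let-7a-5p did not pass (limma adjusted p = 0.201). Another let-7c copy lies 622 bases from let-7b, and let-7b-5p did not pass either (limma adjusted p = 0.347). miR-99a-5p (chr16:77598940-77598961, plus strand) was 1.85, 1.98, 2.23 and 1.98 in Media + IL-33 and 4.42, 4.86, 3.9 and 4.56 in Th2 + IL-33, a 2.2-fold rise (log2 difference 1.14, SE 0.16, limma adjusted p = 8.79e-05). let-7c-5p, 657 bases from it, was 4.27, 4.59, 5.06 and 4.52 in medium-grown cells and 7.49, 8, 6.63 and 7.79 in Th2-grown cells, a 1.62-fold rise (log2 difference 0.70, SE 0.15, limma adjusted p = 0.00621). Every Th2-grown array lay above every medium-grown array for both. The call of let-7c-5p was lost with the percentile over all miRNAs (log2 difference 0.66, adjusted p = 0.191), in the authors' values (0.34, adjusted p = 0.101) and without scaling (0.46, adjusted p = 0.102).

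miR-125b-5p went from 2.03, 2.16, 2.63 and 2.62 to 3.85, 4.29, 3.12 and 4.35 (log2 difference 0.72, SE 0.16, limma adjusted p = 0.00678). miR-100-5p (chr9:41531437-41531458, plus strand) went from 0.215, 0.233, 0.268 and 0.296 to 0.434, 0.533, 0.384 and 0.535 (log2 difference 0.89, SE 0.18, limma adjusted p = 0.00417). In both, the lowest Th2 + IL-33 array was again array 3. miR-99b-5p was 0.0811 to 0.106 in Media + IL-33 and 0.0592 to 0.0932 in Th2 + IL-33 (log2 difference -0.29, 95% interval -0.77 to 0.20). let-7e-5p had a difference of -0.11 (-0.50 to 0.29) and miR-125a-5p of -0.07 (-0.46 to 0.32). The upper ends of these intervals all lie below the rise of the corresponding relative. Because copies of miR-125b and let-7c lie at more than 1 locus, the array does not tell which copy gave the strand.

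Ratios of relatives on the same array do not depend on how arrays were scaled to each other. These pairs were chosen with the values known, so the ratios are a description with no test. The log2 ratio of miR-99a-5p to miR-99b-5p was higher by 1.43 on average in Th2 + IL-33, and on single arrays by 1.26 to 1.60 over the Media + IL-33 mean. The Media + IL-33 arrays themselves lay between -0.21 and 0.17 of that mean. The ratio of let-7c-5p to let-7e-5p was higher by 0.80 and that of miR-125b-5p to miR-125a-5p by 0.79. The ratio of let-7c-5p to let-7a-5p, which differ at 1 of 22 bases, was higher by 0.33, and its groups did not overlap either. How far such close sequences bind each other's probes was not tested.

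**Figure D2:**
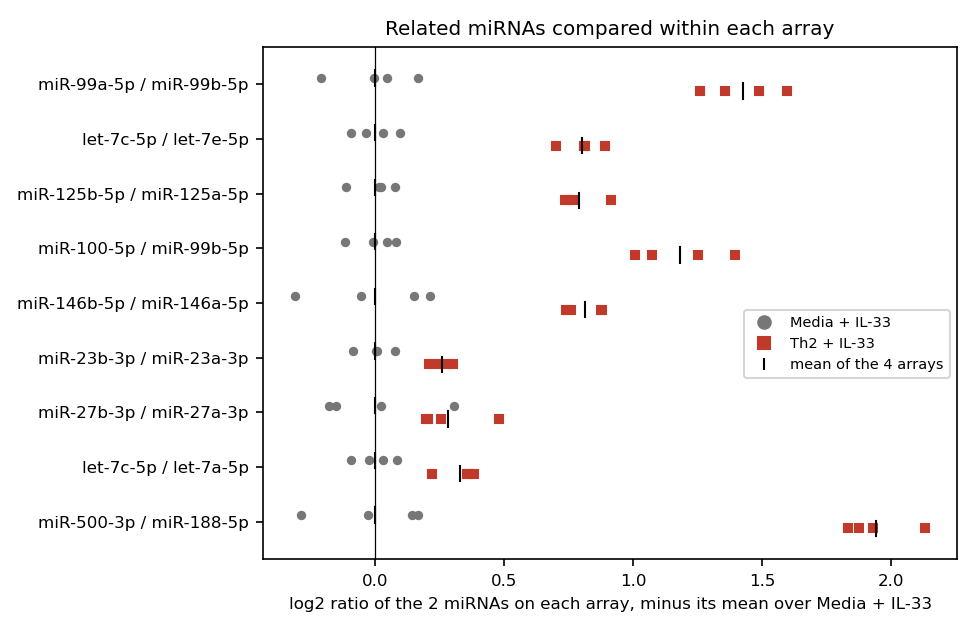
Log2 ratio of 9 pairs of related miRNAs on each array, minus the mean of that ratio over Media + IL-33 (x axis); circles are Media + IL-33, squares Th2 + IL-33, black ticks the mean of 4 arrays. The squares lie to the right of all circles for 8 pairs and overlap them for miR-27b-3p with miR-27a-3p.

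let-7c-5p has the seed GAGGUAG in common with 9 other tested miRNAs whose sequence was retrieved, and none of these passed the test. Nearest was let-7a-5p, at 3.83, 4.27, 4.88 and 4.57 in Media + IL-33 and 5.54, 5.94, 4.82 and 6.35 in Th2 + IL-33 (log2 difference 0.37, limma adjusted p = 0.201). Its array 3 with Th2 growth lay within the medium-grown range. The 7 tested members of the remaining let-7 list had differences from -0.08 to 0.37, with a median of 0.17 that became -0.06 without scaling.

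Among miRNAs known from myeloid cells, 3 of 5 tested rose, where 8.23% of all tested miRNAs did. Like the other lists here, this one was chosen with earlier results of these data known, so its share is a description with no test. The list's median difference was 0.69, and 0.46 without scaling. miR-342-3p, hosted by Evl (chr12:108658680-108658702, plus strand), was 0.229, 0.249, 0.258 and 0.208 in Media + IL-33 and 0.656, 0.634, 0.536 and 0.395 in Th2 + IL-33 (log2 difference 1.21, SE 0.23, limma adjusted p = 0.00253). miR-223-3p, a granulocyte and macrophage miRNA (chrX:96242884-96242905, plus strand), was 0.399, 0.439, 0.459 and 0.336 against 0.98, 1.09, 0.836 and 0.6 (log2 difference 1.08, SE 0.24, limma adjusted p = 0.00687). For both of these, experiment 4 had the lowest array in each group. miR-22-3p was 1.21, 1.22, 1.24 and 1.17 in Media + IL-33 and 1.93, 2.15, 1.57 and 2.24 in Th2 + IL-33 (log2 difference 0.69, limma adjusted p = 0.00897). Neither strand of the leukocyte miRNA miR-142a passed. Its 3p strand differed by -0.04 (95% interval -0.36 to 0.27) and its 5p strand by -0.11 (-0.49 to 0.27).

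The miRNAs of the inflammatory response divided, with 2 of 6 tested higher against 8.23% of all tested miRNAs. Their median difference was 0.39, and 0.11 to 0.39 over the scalings. miR-155-5p, which NF-kB and AP-1 induce in activated macrophages (chr16:84714143-84714165, plus strand), was 0.0798, 0.085, 0.0952 and 0.105 in Media + IL-33 and 0.187, 0.156, 0.116 and 0.146 in Th2 + IL-33. The difference was 0.72 on the log2 scale (SE 0.19, limma adjusted p = 0.0246), and it ranged from 0.29 in experiment 3 to 1.23 in experiment 1. The call was lost without any of Media + IL-33 array 1 or 2 or Th2 + IL-33 array 1, 2 or 4, and under each of 5 other scalings. miR-146b-5p, which damps the signalling proteins TRAF6 and IRAK1, was 0.0972, 0.102, 0.106 and 0.072 against 0.19, 0.229, 0.158 and 0.153 (log2 difference 0.95, SE 0.22, limma adjusted p = 0.00741).

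Its relative miR-146a-5p, with the same seed and 2 mismatches in 22 bases, was 0.452, 0.454, 0.569 and 0.461 in Media + IL-33 and 0.531, 0.646, 0.488 and 0.468 in Th2 + IL-33. Here the groups overlapped (log2 difference 0.13, 95% interval -0.21 to 0.47, limma adjusted p = 0.588). The log2 ratio of miR-146b-5p to miR-146a-5p was higher by 0.81 with Th2 growth, with no overlap. miR-21a-5p, an abundant miRNA of activated macrophages, was 13.5, 15.1, 16.4 and 19.8 against 21.8, 24.3, 21.7 and 30.4. Its groups did not overlap, and its difference of 0.60 missed the threshold (limma adjusted p = 0.139) but passed with the experiment as a replicate block (adjusted p = 0.0233). It passed in 4 of 24 alternatives, this block among them, and its difference ranged from 1.78e-15 to 0.77 over the 24. The smallest is 0 within computing precision. Quantile normalization gives such a 0 to any miRNA of the same rank on every array, so the smallest value is not read as a lack of change. The difference of its other strand miR-21a-3p was 0.08, and that of miR-212-3p 0.18.

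miR-34a-5p, a p53 target linked to stress and senescence (chr4:150068473-150068494, plus strand), was 0.809, 0.904, 0.826 and 0.931 in Media + IL-33 and 1.43, 1.6, 1.44 and 1.55 in Th2 + IL-33 (log2 difference 0.80, SE 0.17, limma adjusted p = 0.00621). Its difference in single experiments kept within 0.74 to 0.82, and their SD of 0.04 was the smallest among the 22 miRNAs. Its call was still lost in 4 of 24 alternatives (limma adjusted p up to 0.194). These were the percentile over all miRNAs, quantile normalization, the authors' table and no scaling. The hypoxia miRNA miR-210-3p did not pass (log2 difference -0.37, limma adjusted p = 0.452).

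Of the miR-23, miR-27 and miR-24 clusters, 1 of 5 tested strands rose, against 8.23% of all tested miRNAs. All 5 differences were positive, as were 131 of all 231, and miR-27a-3p was at -0.03 in the authors' values. The median of the 5 was 0.41, and 0.13 to 0.41 over the scalings. miR-23b-3p was 1.01, 1.02, 1.31 and 1.42 in Media + IL-33 and 1.72, 1.89, 1.44 and 2.24 in Th2 + IL-33 (log2 difference 0.61, SE 0.18, limma adjusted p = 0.0482). Array 3 with Th2 growth barely cleared the highest medium-grown array. This call was lost without any single array other than Media + IL-33 4 or Th2 + IL-33 3, and under each of 5 other scalings. Its cluster neighbour miR-27b-3p had a like difference of 0.62 that missed the threshold (limma adjusted p = 0.0717) and passed with the replicate block (adjusted p = 0.0238). miR-27b-3p passed in 5 of 24 alternatives, this block among them. miR-23a-3p, miR-27a-3p and miR-24-3p differed by 0.35, 0.34 and 0.41, none past the threshold.

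The 3 miRNAs that fell were the tested strands of the miR-183 cluster, which is best known from sensory organs and also expressed in lymphocytes (chr6:30165962-30169732 from miR-182-5p to miR-183-5p, minus strand, within Mirc35hg). All were dim. miR-96-5p was 0.0878, 0.117, 0.102 and 0.16 in Media + IL-33 and 0.0385, 0.0369, 0.0422 and 0.0746 in Th2 + IL-33, at least 2.18-fold lower (limma adjusted p = 0.00897). miR-182-5p was 0.0602, 0.0787, 0.0843 and 0.107 in medium-grown cells, and with Th2 growth at the floor on arrays 1 to 3 and at 0.0458 on array 4, at least 1.79-fold lower (limma adjusted p = 0.00687). Both were well above background on all 4 Media + IL-33 arrays and on 0 of 4 Th2 + IL-33 arrays.

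miR-183-5p was 0.0456, 0.053, 0.0498 and 0.0599 in Media + IL-33 and at the floor on all 4 Th2 + IL-33 arrays (limma adjusted p = 0.0174). It was well above background on only 1 of the medium-grown arrays, and its bound of at least 1.15-fold lower is small. With the normexp background correction none of the 3 passed, and the difference of miR-183-5p was 0.0034, against -0.55. Without Media + IL-33 array 2 or 4 miR-183-5p did not pass, and among the arrays of slide 2 alone miR-96-5p did not pass (adjusted p = 0.0843).

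**Figure D3:**
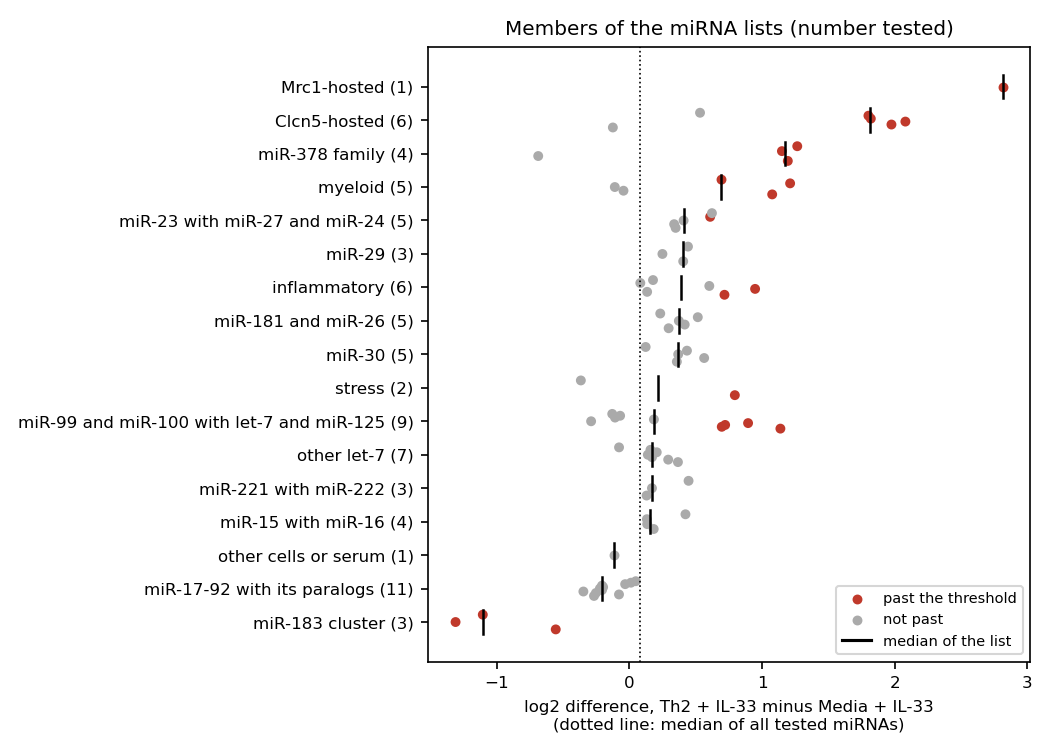
Log2 difference, Th2 + IL-33 minus Media + IL-33, of every tested member of 17 miRNA lists (points, dark where past the threshold; black ticks are list medians; the dotted line is the median of all tested miRNAs, 0.08). The Mrc1, Clcn5 and miR-378 lists have medians of 2.81, 1.81 and 1.17, and the miR-183 cluster -1.10.

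The remaining lists had no member past the threshold. The growth-linked miR-17-92 cluster and its paralogs had 9 of 11 tested strands with negative differences, from -0.35 for miR-19a-3p to 0.05 for miR-25-3p, and a median of -0.21 (-0.44 without scaling). All 5 tested miR-30 strands had positive differences (median 0.37, and 0.13 without scaling), the largest being 0.56 for miR-30b-5p and 0.43 for miR-30d-5p (limma adjusted p = 0.0869). The fibrosis-linked miR-29 family (3 tested) had a median of 0.41, and 0.17 without scaling. The miR-181 and miR-26 list (5 tested) had a median of 0.37, and 0.14 without scaling. miR-221 with miR-222 had a median of 0.17 and miR-15 with miR-16 of 0.16, and without scaling these medians were -0.06 and -0.08. The lone tested miRNA of other cells, miR-206-3p, differed by -0.11 and was not well above background on any of the 8 arrays.

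The closest misses were miR-324-5p (log2 difference 0.52, limma adjusted p = 0.0582), then miR-27b-3p, the brain and islet miRNA miR-7a-5p, miR-532-3p and miR-30d-5p. miR-7a-5p was the single miRNA outside the miR-183 cluster whose Th2 + IL-33 arrays all lay below the Media + IL-33 arrays, at 0.219 to 0.248 against 0.271 to 0.356 (log2 difference -0.41, limma adjusted p = 0.0804). Of the 209 miRNAs that did not pass, 167 had a 95% interval that leaves out a 2-fold change in either direction, and 42 had a wider one.

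**Figure D4:**
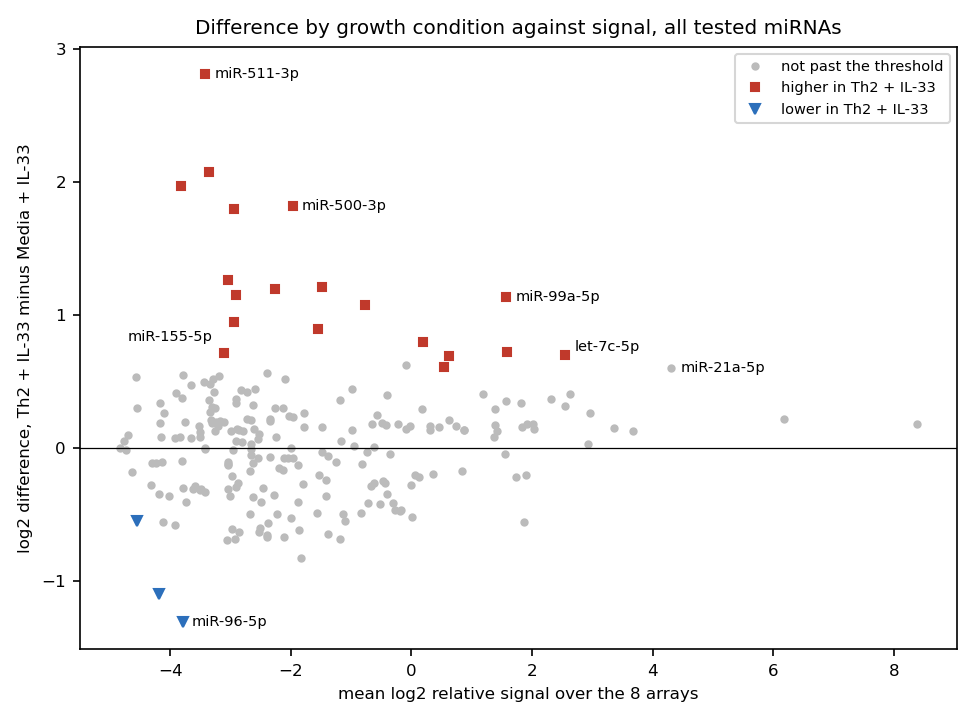
Log2 difference, Th2 + IL-33 minus Media + IL-33 (y axis), against mean log2 relative signal over the 8 arrays (x axis) for the 231 tested miRNAs; squares are the 19 higher with Th2 growth, triangles the 3 lower, and grey points the rest. Increases occur from dim signals (miR-511-3p) to bright ones (let-7c-5p), and the 3 decreases are all dim.

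The size of the change varied between experiments. Of the 19 miRNAs that rose, 16 had their smallest difference in experiment 3 (84.2%) and 3 in experiment 4. Over all 231 tested miRNAs, 138 were smallest in experiment 3 (59.7%), so low values there were not limited to the miRNAs that rose. The median difference of all tested miRNAs was 0.30, 0.12, -0.05 and 0.05 in experiments 1 to 4. For miR-125b-5p the difference was 0.92, 0.99, 0.25 and 0.73 in experiments 1 to 4, and for miR-378a-3p 1.47, 1.44, 0.74 and 1.13. The 75th percentile by which signals were divided was also highest on Th2 + IL-33 array 3 among its group (636 intensity units against 462 to 571), and its part in this pattern was not tested. Without that array 26 miRNAs passed, the 22 among them. With the slide as a block all 22 passed again, and within slide 2 (2 Media + IL-33 and 4 Th2 + IL-33 arrays) all 22 kept their sign and 21 passed.

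The arrays without IL-33 show what the growth phase did by itself, in other samples of the same experiments. There, 22 of the 231 passed (9.52%), 20 higher with Th2 growth (8.66%) and 2 lower (0.866%). miR-500-3p differed by 1.96 without IL-33 and 1.82 with it, miR-99a-5p by 1.08 and 1.14, and miR-96-5p by -1.41 and -1.31. The test of the difference between these differences (the interaction) was passed by 0 miRNAs in limma, with 5 at an unadjusted p under 0.05 (2.16%). The smallest adjusted p was 0.995.

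**Figure D5:**
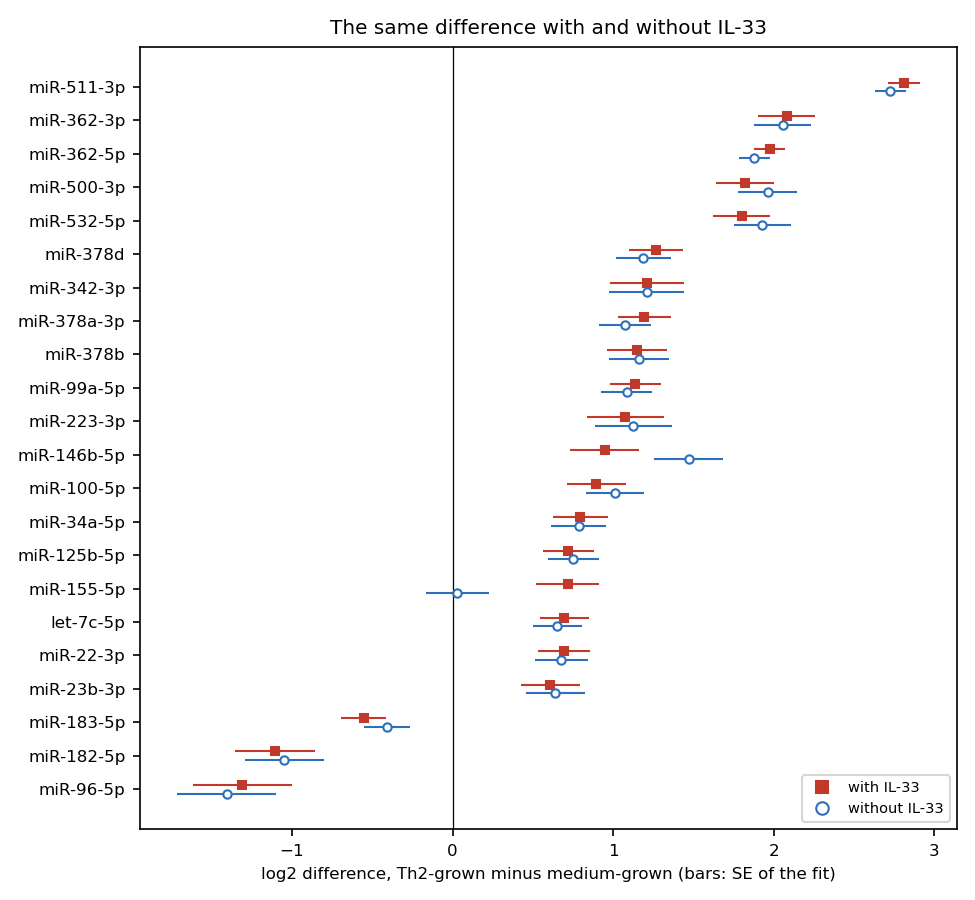
Log2 difference between Th2-grown and medium-grown cells for the 22 miRNAs (x axis; bars are the SE of the fit), with IL-33 (squares, 4 arrays against 4) and without it (open circles, 4 against 4). The 2 values lie close together for most miRNAs, and apart for miR-155-5p (0.72 and 0.03) and miR-146b-5p (0.95 and 1.47).

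Among the 22, miR-155-5p had the largest interaction, 0.69 on the log2 scale with a 95% interval of 0.10 to 1.27. Without IL-33 it lay at 0.0353 to 0.0581 in Media and 0.0353 to 0.0545 in Th2, near the floor, so a difference there could hardly show. For miR-146b-5p the difference was smaller with IL-33 by 0.52, with an interval of -1.17 to 0.13. Neither passed (limma adjusted p of at least 0.995). For miR-99a-5p the interaction was 0.05, with an interval of -0.42 to 0.53.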

How the data were processed

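Total RNA was hybridised to 1-colour Agilent miRNA arrays, per the labels' protocols. The authors' deposited scanner files (Feature Extraction 10.7.3.1, per the file headers) give background-subtracted intensity per spot. Their deposited table of quantile-normalized probe values, made with Partek 6.6 and RMA per the submitters' processing notes, served as an alternative. Its exact scale is not stated. Its values were treated as intensities, summed per miRNA and then log2-transformed.

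Control and outlier spots were dropped, spots averaged per probe and probes summed per miRNA. For scaling, 178 miRNAs that every one of the 16 arrays detected gave each array's 75th percentile, by which its sums were divided. Values were floored at the 1st percentile of detected signals and log2-transformed. A miRNA was tested if some group detected it on each of its 4 arrays (231 miRNAs). The test was limma 3.58.1 (R 4.3.3) with 1 mean for each of 4 groups (12 residual degrees of freedom), and p-values were adjusted by Benjamini-Hochberg over all 231. The procedure was tested on simulated data.

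The labels give the experiment behind each replicate number, which pairs the arrays. Deviations of same-numbered arrays from their group means correlated at 0.02, -0.56, 0.14 and 0.08. By this measure none of the Th2 + IL-33 arrays was closest to the Media + IL-33 array of its own number, so the values do not show the pairing. The block on the experiment is an alternative, as are other scalings, background corrections, floors, filters, slide blocks, array weights and leaving out arrays. The unscaled setting was added after seeing the data.

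Named miRNAs are, of those past the threshold, the 15 largest increases and 15 largest decreases, their other strands where tested, the 5 closest misses, 5 macrophage miRNAs chosen by name (miR-21a-5p, miR-155-5p, miR-378a-3p, miR-146a-5p, miR-223-3p) and up to 6 members of each list. The members and lists were chosen with earlier results of these data known. The 4 increases beyond the first 15 enter as list members.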

Additional observations from a re-analysis of the deposited data

Results flagged for a closer look

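Of 64 groups of 4 arrays checked, 5 held an array whose gap to the others was large for the range of the group, and chance does this in about 1 group in 20. miR-362-3p was highest on Th2 + IL-33 array 2, at 0.229 relative signal against 0.189 to 0.194 on the other 3. miR-532-3p was also highest on that array, at 0.0738 against 0.0437 to 0.046. miR-378a-3p was lowest on Th2 + IL-33 array 3, at 0.25. miR-182-5p was at 0.0458 on Th2 + IL-33 array 4 and at the floor on the other 3. miR-146a-5p was highest on Media + IL-33 array 3, at 0.569 against 0.452 to 0.461.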

How the results depend on the processing

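Under 24 alternatives, 10 of the 22 calls held in every one: miR-511-3p, both miR-362 strands, miR-532-5p, miR-500-3p, miR-378a-3p, miR-378b, miR-378d, miR-99a-5p and miR-342-3p. The other 12 were lost in at least 1. miR-125b-5p was lost in 2, let-7c-5p and miR-182-5p in 3, and miR-34a-5p, miR-96-5p, miR-100-5p and miR-223-3p in 4. miR-22-3p was lost in 5, miR-146b-5p in 6, miR-183-5p in 7, miR-155-5p in 11 and miR-23b-3p in 14. Only miR-183-5p changed sign, to 0.0034 with normexp (adjusted p = 0.98). The cause was not tested. The number past the threshold was 12 (10 higher) with the percentile over all miRNAs, 14 (11 higher) with the authors' table, 14 (10 higher) without scaling and 14 (0 lower) without a filter, where most residual variances were 0. It was 37 (34 higher) with slide and replicate block, 32 (30 higher) within slide 2 and 71 (64 higher, 7 lower) with array weights. The number lower was 0 with normexp, 5 with the software's total gene signal and 1 with the floor at the 5th percentile. Leaving out an array gave 19 to 26 (17 to 23 higher, 2 to 3 lower). With the replicate block 24 passed, the 22 and miR-21a-5p and miR-27b-3p, and the block changed no other call. Without Media arrays 1 and 3 and Th2 + IL-33 array 2, left out together as standing apart, 27 passed, the 22 among them. Without Th2 + IL-33 array 2 alone 20 passed, and the calls of miR-155-5p and miR-23b-3p were lost. The median of all tested miRNAs moved from 0.08 to -0.04 in the authors' table. Of the miRNAs that rose, miR-511-3p ranged from 0.85 (normexp) to 3.85 (total gene signal). All 38 probes of the 22 that were well above background on at least 1 of the 8 arrays moved in the direction of their miRNA. The other probes of the 22 had a difference of 0. Each miRNA's value is the sum of its probes, so this is no separate support for the calls. Values near the floor, such as the miR-183 cluster's, are limited by background.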
